A study of Mus musculus with 4 samples.

Results

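MHC class I molecules show fragments of a cell's own proteins to CD8+ T cells. The proteasome cuts the proteins into peptides, the transporter made of TAP1 and TAP2 carries the peptides into the endoplasmic reticulum, and tapasin (Tapbp) helps to load them onto a heavy chain paired with beta-2-microglobulin (B2m). Interferons raise most of these genes together, exchange the catalytic subunits of the proteasome for Psmb8, Psmb9 and Psmb10, and induce NLRC5, a transactivator of the class I genes. Fibroblasts and preadipocytes use the pathway at a basal level, as most nucleated cells do.

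The pathway was followed here through 10 genes, namely the heavy chains H2-K1 and H2-D1, B2m, Tap1, Tap2, Tapbp, Psmb8, Psmb9, Psmb10 and Nlrc5. Every array probe whose RefSeq accession maps to one of these genes was taken, which gave 12 probes for 10 of the 20956 genes measured. H2-K1 and Nlrc5 had 2 probes each, and the other 8 genes had 1. Where a gene had 2, the brighter stands for the gene, and the second is given too.

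Total RNA came from 3T3-L1 cells, a mouse fibroblast line that can be driven to become adipocytes, in 4 cultures with 1 array each. The groups were Lamp2a knockdown and control cells at day 2, kept in medium with 160 nM insulin, 250 nM dexamethasone and 0.5 mM 1-methyl-3-isobutylxanthine, and Lamp2a knockdown and control cells at day 0, which were confluent and had not met these agents. LAMP2A, made from one of the splice forms of Lamp2, is the receptor on lysosomes for chaperone-mediated autophagy. How the knockdown was made, and whether a line is 1 clone, is not stated in the labels used here. No culture was held to day 2 without the agents, so their effect and that of time in culture cannot be told apart.

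Each group has a single array, so replicates cannot be compared and no test was possible. A gene was called at a difference of 2-fold. Beside each log2 ratio stands its spot error, the error of the ratio that follows from the scatter of repeat spots within the arrays, which leaves out all variation between cultures. Signals are given as scaled signal, the processed intensity as a multiple of the 75th percentile of the array, and are compared only between arrays for the same probe. In RNA from whole cultures, fewer cells with a transcript and less of it per cell cannot be told apart.

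The probe annotated to the Lamp2 transcript NM_001017959 read 3.24 in knockdown cells and 11.4 in control cells at day 2, and 4.76 in knockdown cells and 19.7 in control cells at day 0, which puts the knockdown 3.51-fold below control on the later day and 4.13-fold below it on the earlier one. The Lamp2 probe annotated to NM_010685 was lower in the knockdown by 1.08-fold at day 2 and 1.29-fold at day 0. The control day 0 array lies on slide 1 and the other 3 on slide 2, so the effect of the slide cannot be told apart from that of the group in the day 0 comparison and in the time course of control cells. Dim probes read lower on that array: the median of 1072 olfactory receptor genes was 0.0214 in knockdown and 0.0231 in control cells at day 2, and 0.0239 in knockdown and 0.00704 in control cells at day 0. Counts of genes are therefore given over the 11394 bright genes, whose mean level lies above that of 95% of the olfactory receptor genes (a scaled signal of 0.226). All 10 pathway genes were bright and were well above background on all 4 arrays. Markers of preadipocytes such as Dlk1 and Col1a1 were among the bright genes, 3 of 8 adipocyte markers were bright (Fabp4, Lpl and Pparg) and the others, Adipoq among them, were dim, and the summed signal of 10 leukocyte markers was 38.4 in knockdown and 28.3 in control cells at day 2, and 32.1 in knockdown and 19.4 in control cells at day 0. Of these 10, 5 were bright (Itgam, which gave most of the sum, Csf1r, Aif1, Cd14 and Fcer1g), and Ptprc, Adgre1 and Tyrobp stayed under the limit of the bright genes on all arrays (0.112 at most). The part of other cell types in the results was not tested.

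All 10 genes read lower at day 2 than at day 0, in knockdown and in control cells alike, though for H2-K1 in knockdown cells by less than 1 spot error. The arrays of knockdown cells share slide 2, but the day 0 one alone did not have the scanner software's detrending step. In knockdown cells 3 of the 10 fell by 2-fold or more (Psmb8, Psmb10 and Nlrc5), against 9.22% of bright genes. In control cells 6 of the 10 did (Tap1, Tapbp, Psmb8, Psmb9, Psmb10 and Nlrc5), against 7.75% of bright genes. None of the 10 rose by 2-fold in either, where 6.17% of bright genes in knockdown and 7.6% in control cells did. The median log2 ratio of the 10 genes was -0.84 in knockdown and -1.08 in control cells, while that of all bright genes was 0.08 and 0.02. The knockdown itself went with smaller differences. At day 2 only Nlrc5 of the 10 was 2-fold lower with the knockdown, against 3.61% of bright genes, and at day 0 Tap1, Psmb8 and Nlrc5 were, against 3.1% of bright genes. None was 2-fold higher with the knockdown, where 3.02% of bright genes were at day 2 and 5.63% at day 0. The median ratio of knockdown over control was -0.29 at day 2 and -0.54 at day 0, with 0.04 and -0.02 over all bright genes.

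**Figure D1:**
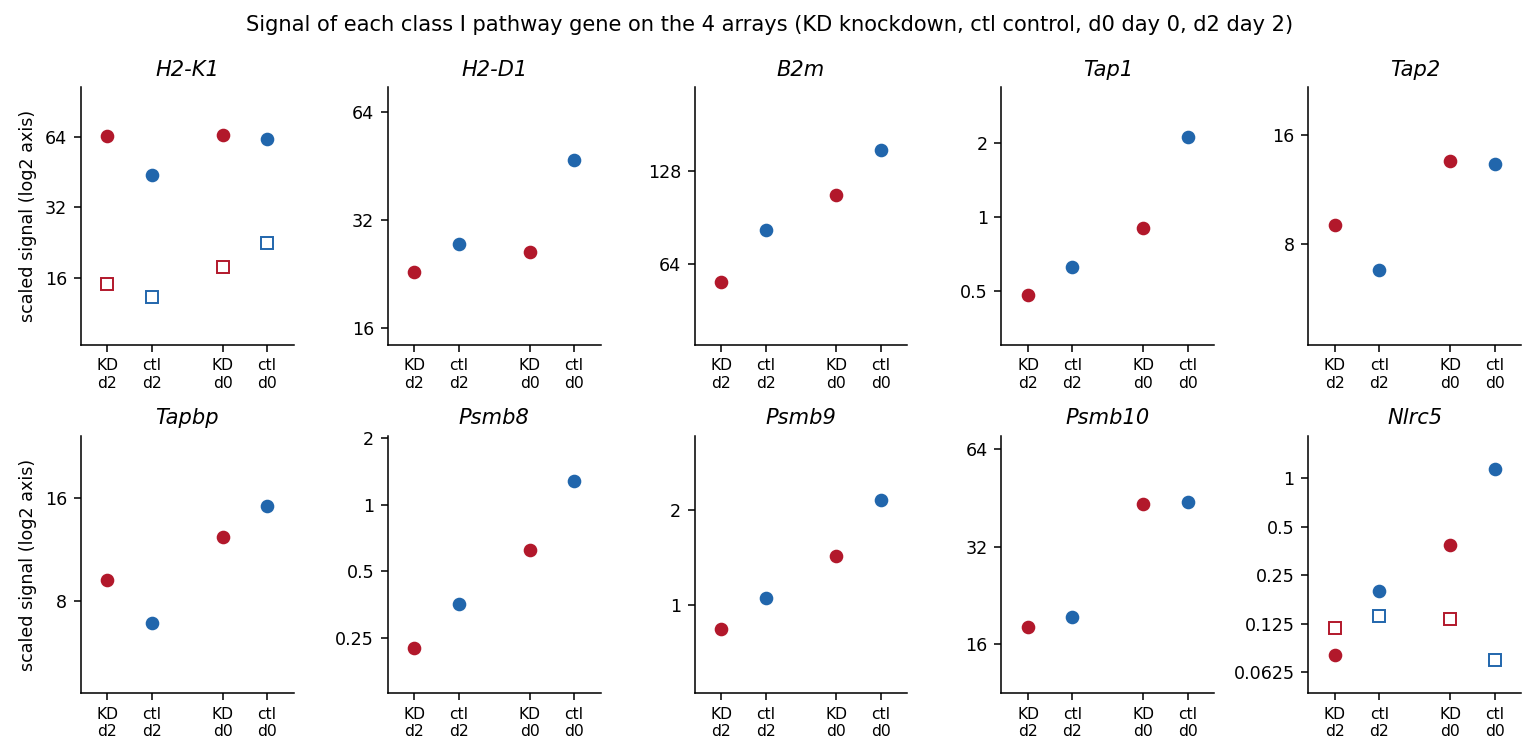
Scaled signal (log2 axis, multiples of the 75th percentile of the array) of the 10 genes on each array, with knockdown in red, control in blue, filled circles for the brightest probe and open squares for the second probe of H2-K1 and Nlrc5. Nlrc5 spans the widest range, between 0.0795 and 1.15, and H2-K1 the narrowest, between 43.8 and 65.3.

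B2m, the light chain shared by the class I surface molecules, read 55.9 in knockdown and 82.6 in control cells at day 2, and 107.4 in knockdown and 150 in control cells at day 0. Day 2 lay below day 0 in both kinds of cell, and knockdown below control on both days. The log2 ratio of knockdown over control was -0.56 ± 0.019 at day 2 and -0.48 ± 0.034 at day 0 (spot error), and that of day 2 over day 0 was -0.94 ± 0.045 in knockdown and -0.86 ± 0.044 in control cells, all short of 2-fold.

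The heavy chain H2-D1 read 22.9 in knockdown and 27.4 in control cells at day 2, and 26.0 in knockdown and 47.0 in control cells at day 0. The control day 0 array stood apart, and the other 3 lay close together: knockdown cells at day 0 and control cells at day 2 differed by less than 2 spot errors. The knockdown ratio was -0.26 ± 0.026 at day 2 and -0.85 ± 0.047 at day 0. Since the array that stands apart is also the one on the other slide, the slide cannot be told apart from the group in this value.

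H2-K1, the other classical heavy chain, was measured by a probe printed 10 times and read 64.7 in knockdown and 43.8 in control cells at day 2, and 65.3 in knockdown and 62.6 in control cells at day 0. Here the control day 2 array was the low one, and the other 3 differed between neighbours by less than 2 spot errors. Its knockdown ratio was 0.56 ± 0.0059 at day 2 and 0.06 ± 0.029 at day 0. The second H2-K1 probe gave 0.19 ± 0.027 at day 2 and -0.35 ± 0.048 at day 0, so the probes had the same sign at day 2 and opposite signs at day 0. Over time the first probe gave -0.01 ± 0.020 in knockdown and -0.52 ± 0.047 in control cells, and the second gave -0.24 ± 0.062 in knockdown and -0.77 ± 0.063 in control cells. Against the first H2-K1 probe, H2-D1 had the lower knockdown ratio on both days, with differences of -0.82 ± 0.026 at day 2 and of -0.91 ± 0.055 at day 0. Over time, H2-D1 (-0.18 in knockdown and -0.78 in control cells) lay below the first H2-K1 probe and not clearly apart from the second. Class I genes are near-identical copies of each other and vary between mouse strains, so cross-hybridisation between their probes and the match of the probes to the alleles of 3T3-L1 are uncertain and were not tested.

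The upstream sequences of these 3 genes are shown because H2-K1 and H2-D1 differ in their ratios while the stretches before their starts are nearly alike once aligned. They are from RefSeq promoter windows of assembly GRCm38.p6, which run from 250 bases before the gene's start to 50 after it. They come from the reference strain and were not read from these cells. Capitals mark, on either strand, the interferon-stimulated response element core, in its full form in B2m and in the shorter form GAANNGAAA in H2-K1 and H2-D1, the X2 box core TGACG and the Y box core CCAAT. NLRC5 is known to act through a module that holds the X and Y boxes.
H2-K1, chr17:34000348-34000477, minus strand: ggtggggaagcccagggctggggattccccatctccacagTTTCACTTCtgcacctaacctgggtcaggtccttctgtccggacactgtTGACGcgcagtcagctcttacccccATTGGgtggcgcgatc
H2-D1, chr17:35262914-35263093, plus strand: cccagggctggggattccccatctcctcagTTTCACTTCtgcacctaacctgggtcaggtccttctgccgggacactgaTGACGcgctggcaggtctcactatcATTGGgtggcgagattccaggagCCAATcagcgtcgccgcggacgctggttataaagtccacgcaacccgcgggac
B2m, chr2:122147537-122147686, plus strand: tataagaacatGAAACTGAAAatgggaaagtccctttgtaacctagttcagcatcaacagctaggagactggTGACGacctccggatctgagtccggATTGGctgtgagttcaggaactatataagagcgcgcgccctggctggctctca
All 3 stretches hold the motifs in the same order, the interferon element first, then TGACG, then CCAAT as its complement ATTGG. A second CCAAT follows in both heavy chains, in the printed stretch of H2-D1 and just past the end of that of H2-K1. Aligned on the interferon element, H2-K1 and H2-D1 were identical at 94 of 100 bases around it. Counted from the annotated start, the element begins at -90 in H2-K1 and at -150 in H2-D1, so the alike stretches are shifted against each other.

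Windows were found for 8 of the 10 genes, all but Tap2 and Nlrc5. TGACG was in 5 of the 8 (B2m, H2-K1, H2-D1, Tap1 and Psmb9), against 20.8% of 32851 windows of the mouse genome, and CCAAT in 6 of the 8 (the same 5 and Tapbp), against 37.4%. GAANNGAAA was in the windows of H2-K1 and H2-D1 and 7.52% of all windows, the full interferon-stimulated response element core in that of B2m and 3.44% of all, and the gamma-activated site letters TTCNNNGAA in that of Psmb8 and 8.30% of all. The NF-kB core was in 5 of the 8 and 50.8% of all. Each motif was searched on both strands. H2-K1 and H2-D1 are copies, and the windows of Tap1 and Psmb9 overlap, so these matches are not independent of each other.

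Peptide transport and loading were split. Tap1, which forms the transporter with Tap2, read 0.482 in knockdown and 0.623 in control cells at day 2, and 0.900 in knockdown and 2.12 in control cells at day 0. Knockdown lay below control on both days and day 2 below day 0 in both kinds of cell, with the control day 0 array the highest. The knockdown was 1.29-fold below control at day 2 (log2 ratio -0.37 ± 0.025) and 2.35-fold below it at day 0 (-1.24 ± 0.023). By the brightest probe of each gene, Tap1 had the biggest gap between the days of the 10 genes, 0.86 ± 0.027 on the log2 scale. From day 0 to day 2 its ratio was -0.90 ± 0.029 in knockdown cells and -1.77 ± 0.034, a 3.40-fold fall, in control cells.

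Tap2, the partner of Tap1 in the transporter, did not share this pattern. It read 9.03 in knockdown and 6.78 in control cells at day 2, and 13.5 in knockdown and 13.3 in control cells at day 0. Knockdown and control cells were within 2 spot errors of each other at day 0, and at day 2 the knockdown was the higher, by a log2 ratio of 0.41 ± 0.027. Day 2 lay below day 0 by a log2 ratio of -0.58 ± 0.060 in knockdown and -0.98 ± 0.062 in control cells, which at 1.97-fold in control cells was just short of the 2-fold line. Between the transporter's subunits, the knockdown ratio of Tap1 was lower than that of Tap2 by 1.72-fold at day 2 and by 2.39-fold at day 0, in both cases past 2 spot errors.

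Tapasin, the peptide-loading chaperone encoded by Tapbp, read 9.22 in knockdown and 6.92 in control cells at day 2, and 12.4 in knockdown and 15.2 in control cells at day 0. The knockdown ratio was 0.41 ± 0.027 at day 2 and -0.29 ± 0.046 at day 0, with neither reaching 2-fold and the sign turning between the days. Day 2 lay below day 0 by a log2 ratio of -0.42 ± 0.060 in knockdown cells and of -1.13 ± 0.062 in control cells, where Tapbp fell 2.19-fold.

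Tap1 starts next to Psmb9, and both are transcribed away from the sequence between their starts, which is shown because the genes share it but differed in their ratios. It is from the same RefSeq windows.
From the Psmb9 start to the Tap1 start, chr17:34187331-34187555, plus strand: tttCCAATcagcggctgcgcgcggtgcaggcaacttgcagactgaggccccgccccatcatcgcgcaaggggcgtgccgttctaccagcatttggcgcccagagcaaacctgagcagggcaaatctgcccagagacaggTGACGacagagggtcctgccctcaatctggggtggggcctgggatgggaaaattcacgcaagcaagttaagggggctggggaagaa
The same letters are in capitals as above, and the interval held 1 CCAAT and 1 TGACG. The knockdown ratios of the pair differed by less than 2 spot errors at day 2 (-0.37 for Tap1 and -0.33 for Psmb9), and at day 0 that of Tap1 was lower by 1.55-fold (-1.24 against -0.60). Over time the ratios were within 2 spot errors of each other in knockdown cells, and in control cells Tap1 was lower than Psmb9 by 1.66-fold. Both of the gaps past 2 spot errors rest on the control day 0 array. Psmb9, Tap1, Psmb8 and Tap2 are 4 neighbouring protein-coding genes in the RefSeq annotation, and 7 of the 10 pathway genes lie on this chromosome.

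All 3 catalytic subunits of the immunoproteasome were lower at day 2 than at day 0. In control cells Psmb8 had a lower ratio over time than Psmb10, by a difference of -0.68 ± 0.10, and in knockdown cells the pair were within 2 spot errors (-0.21 ± 0.11). Psmb8, which replaces Psmb5, read 0.224 in knockdown and 0.355 in control cells at day 2, and 0.623 in knockdown and 1.28 in control cells at day 0. The knockdown level at day 2 was just under the limit of the bright genes (0.226). Psmb8 fell 2.78-fold from day 0 to day 2 in knockdown cells (-1.47 ± 0.090) and 3.61-fold in control cells (-1.85 ± 0.083). The knockdown stood 1.58-fold below control at day 2 and 2.06-fold below it at day 0. The call at day 0 lies just past the 2-fold line and was lost where the arrays were scaled by probes detected on all of them.

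Psmb9, which replaces Psmb6, read 0.836 in knockdown and 1.05 in control cells at day 2, and 1.42 in knockdown and 2.16 in control cells at day 0. Its fall over time reached 2-fold only in control cells, at 2.05-fold (-1.04 ± 0.072), with -0.77 ± 0.071 in knockdown cells. That call lies just past the 2-fold line, with log2 ratios of -1.13 to -0.93 over the settings. The knockdown ratio was -0.33 ± 0.042 at day 2 and -0.60 ± 0.054 at day 0.

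Psmb10, which replaces Psmb7, read 18.0 in knockdown and 19.5 in control cells at day 2, and 43.3 in knockdown and 44.0 in control cells at day 0. The arrays paired by day and hardly by kind of cell. It fell 2.40-fold over time in knockdown and 2.26-fold in control cells, while the knockdown ratio was -0.11 ± 0.026 at day 2 and -0.02 ± 0.047 at day 0.

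The subunits that they replace showed no such fall. Psmb5, Psmb6 and Psmb7 had log2 ratios between -0.18 and 0.10 over time and between -0.25 and 0.06 for the knockdown, and none was called. Set against its constitutive partner, Psmb8 had a log2 ratio over time that differed by -1.58 ± 0.11 in knockdown and by -1.94 ± 0.10 in control cells. For Psmb9 against Psmb6 the difference was -0.67 ± 0.096 in knockdown and -0.98 ± 0.095 in control cells, and for Psmb10 against Psmb7 it was -1.09 ± 0.087 in knockdown and -1.05 ± 0.087 in control cells. In the knockdown ratio, Psmb8 differed from Psmb5 by -0.43 ± 0.069 at day 2 and -0.79 ± 0.088 at day 0. Psmb9 differed from Psmb6 by -0.35 ± 0.050 at day 2 and -0.66 ± 0.073 at day 0. Psmb10 differed from Psmb7 by -0.10 ± 0.038 at day 2 and -0.06 ± 0.066 at day 0, the last within 2 spot errors. The 11 subunits of the 20S core that are not exchanged had median ratios over time of 0.05 in knockdown and 0.23 in control cells, and 1 of them, Psma1, was called, higher in control cells and lower in the knockdown at day 2.

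**Figure D2:**
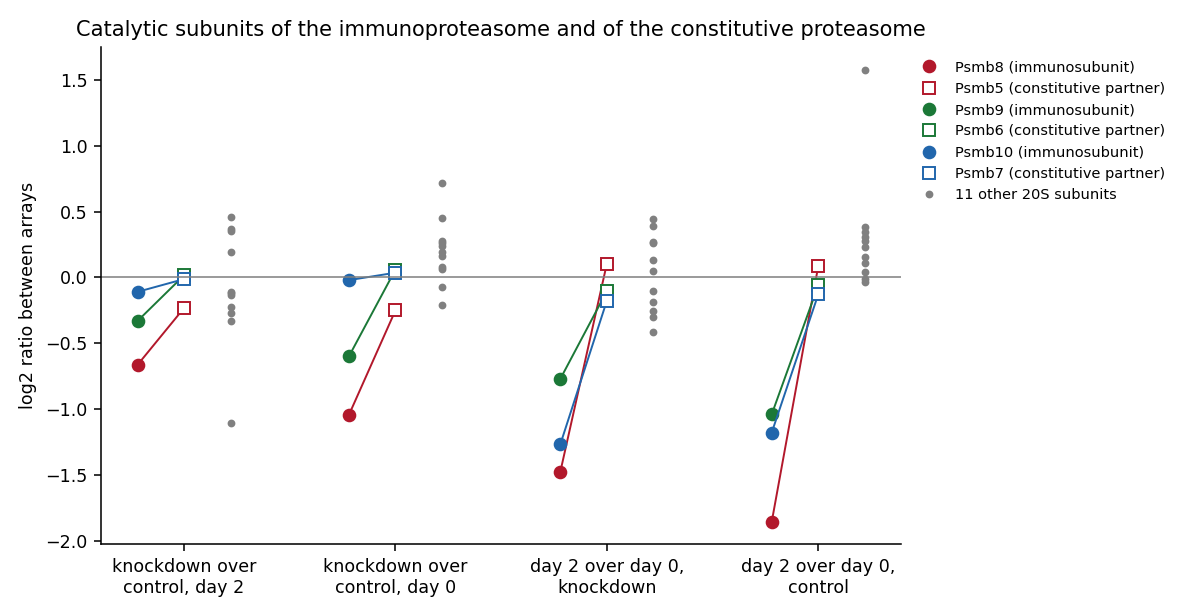
Log2 ratio between arrays (vertical axis) of the 3 immunosubunits (filled circles), each joined by a line to the constitutive subunit it replaces (open squares), with the 11 other 20S subunits as grey points. Over time each immunosubunit lies below its partner, with differences of -0.67 to -1.94, and the constitutive subunits lie between -0.18 and 0.10.

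Nlrc5, the transactivator, had the widest span. Its brighter probe read 0.0795 in knockdown and 0.198 in control cells at day 2, and 0.384 in knockdown and 1.15 in control cells at day 0. The knockdown was 2.49-fold below control at day 2 (-1.32 ± 0.076) and 3.00-fold below it at day 0 (-1.58 ± 0.097), and Nlrc5 fell 4.83-fold from day 0 to day 2 in knockdown cells (-2.27 ± 0.097) and 5.81-fold in control cells (-2.54 ± 0.092). At day 2 both levels were under the limit of the bright genes, where the background weighs most. The second Nlrc5 probe was dim on all arrays, at 0.116 in knockdown and 0.140 in control cells at day 2 and 0.133 in knockdown and 0.0736 in control cells at day 0, and its ratios differed from those of the brighter probe. Its knockdown ratio was -0.26 ± 0.12 at day 2 and 0.85 ± 0.27 at day 0, and its ratio of day 2 over day 0 was -0.19 ± 0.18 in knockdown and 0.93 ± 0.25 in control cells. With the median of both probes Nlrc5 was no longer called in the knockdown on either day or over time in control cells, and with normexp background correction it was not called in the knockdown at day 2.

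**Figure D3:**
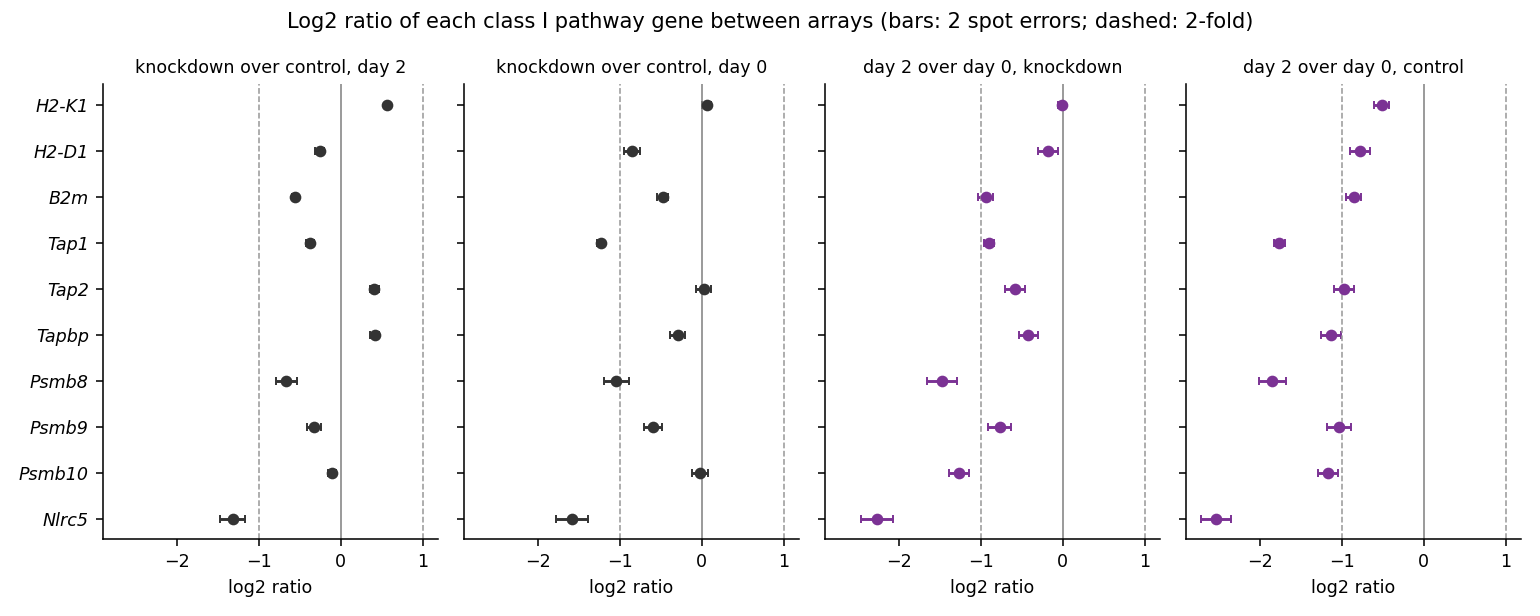
Log2 ratio of each gene (horizontal axis) in the 4 comparisons, knockdown over control in black and day 2 over day 0 in purple, with bars of 2 spot errors and dashed lines at 2-fold. All points of the time courses lie at or below 0, and Nlrc5 is the lowest in each comparison, at -1.32 to -2.54.

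Seen over the 4 arrays, 6 of the genes (B2m, Tap1, Psmb8, Psmb9, Psmb10 and Nlrc5) had the same order of levels, lowest in knockdown cells at day 2, then control cells at day 2, then knockdown cells at day 0 and highest in control cells at day 0. For Psmb10 the day 0 levels of knockdown and control cells were within 2 spot errors. H2-D1, Tapbp, Tap2 and H2-K1 each had an order of their own. The knockdown ratio at day 2 minus that at day 0 was above 0 for 8 of the 10 genes and between -0.09 and 0.86 for all, with a median of 0.39, against 0.08 over bright genes. With the brightest probe of each gene, none reached 2-fold in it, where 2.66% of bright genes were 2-fold above and 6.63% below. For Nlrc5 the probes had opposite signs, with 0.27 ± 0.13 for the brighter one. The second, dim on all arrays, gave -1.11 ± 0.33, which is past 2-fold. The day 0 knockdown ratio and the time course of control cells share the control day 0 array, so a gene that reads high there is low in both.

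Genes related to the pathway were set beside these. Of 12 bright genes on a list of other class I and class I-like chains, 4 fell by 2-fold over time in knockdown cells, against 9.22% of bright genes. They were led by H2-M3 (-1.38), H2-Q10 (-1.24) and Mr1 (-1.21). In control cells 5 fell, against 7.75% of bright genes, led by Mr1 (-1.75), H2-M3 (-1.66) and H2-Q10 (-1.51). Mr1 presents vitamin metabolites to MAIT cells and H2-M3 presents N-formylated peptides. None of the 12 was called lower in the knockdown on either day. Cd1d1, which presents lipids to NKT cells, went the other way: it read 34.2 in knockdown and 6.32 in control cells at day 2 and 4.76 in knockdown and 3.50 in control cells at day 0, a log2 ratio of 2.44 for the knockdown at day 2 and of 2.84 over time in knockdown cells. Of the 5 bright H2-Q copies, H2-Q2, H2-Q7 and H2-Q8 had knockdown ratios at day 0 of -0.73 to -0.85, beside -0.85 for H2-D1, while H2-Q10 had -0.61 and H2-Q4 had 0.06. The same uncertainty about near-identical copies applies to them.

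The genes that supply and load peptides were mostly level. Of 15 bright ones, 1 was called over time, Tapbpl, a peptide editor related to tapasin. It fell with a log2 ratio of -1.43 in knockdown and -1.87 in control cells, where 9.22% and 7.75% of all bright genes fell by 2-fold. None of the 15 was called in the knockdown. The reticulum chaperones Calr, Canx, Pdia3 and Hspa5, which serve many other proteins, had ratios between -0.34 and 0.54 in the 4 comparisons. Of 8 bright proteasome activators and assembly factors none was called. Psme1, the activator subunit that interferon induces, had a ratio over time of -0.68 ± 0.017 in knockdown and -0.75 ± 0.019 in control cells, and in the knockdown it was within 1 spot error of 0 at day 2 and at -0.08 ± 0.012 at day 0. Psme2, its partner, has no value here.

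Of 12 bright transcription factors known to act on class I genes, 1 was called, Irf2, a member of the interferon regulatory factor family. It rose by 1.17 in knockdown and 1.07 in control cells over time, where 6.17% and 7.6% of all bright genes rose by 2-fold. Irf1, an activator of class I genes in the interferon response, read 32.5 in knockdown and 20.2 in control cells at day 2, and 34.0 in knockdown and 26.3 in control cells at day 0. Knockdown lay above control, by 0.69 ± 0.026 at day 2 and 0.37 ± 0.047 at day 0. Rfx5, the X-box binding factor that works with NLRC5, was dim, and neither of its probes was called.

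Interferon-stimulated genes outside the pathway showed larger falls than the 10 genes. Of 25 bright antiviral genes, 20 fell by 2-fold over time in knockdown and 22 in control cells, with medians of -2.78 and -2.72. Of all bright genes, 9.22% and 7.75% did. Since a gene is bright by its mean level, some passed through high day 0 levels. Ifit2 and Rsad2, for example, were under the limit on both day 2 arrays, so the sizes of such falls rest on dim levels. Without the limit, 21 of 27 antiviral genes fell in knockdown and 23 in control cells, with medians of -2.70 and -2.47. In the knockdown 13 of the bright antiviral genes were lower at day 2 and 15 at day 0, with medians of -1.11 and -1.41. Of all bright genes, 3.61% and 3.1% were. Oas1a, a sensor of double-stranded RNA, read a dim 0.0310 in knockdown and 1.52 in control cells at day 2. At day 0 it read 1.76 in knockdown and 31.6 in control cells. Ifit3, an interferon-induced antiviral protein, had a log2 ratio over time of -8.28 in knockdown and -6.41 in control cells, reaching a dim level of 0.0295 in knockdown cells. Isg20 was the 1 gene of the list called higher in the knockdown, at day 2 (1.61). Of 13 bright genes on a list of interferon-inducible GTPases and genes induced with class I, 10 fell over time in knockdown and 9 in control cells. They were led by Gbp4 (-3.93) in knockdown and Gbp3 (-4.13) in control cells. Gbp4 ended at dim levels, 0.0721 in knockdown and 0.194 in control cells at day 2. Of the 13, 3 were lower in the knockdown at day 2 and 5 at day 0. Gbp2 was higher in the knockdown at day 2 (1.25), and Socs1, an inhibitor of interferon signalling, rose in control cells (1.05). The control time course and the day 0 counts include the array on slide 1, and the knockdown time course and the day 2 counts do not.

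**Figure D4:**
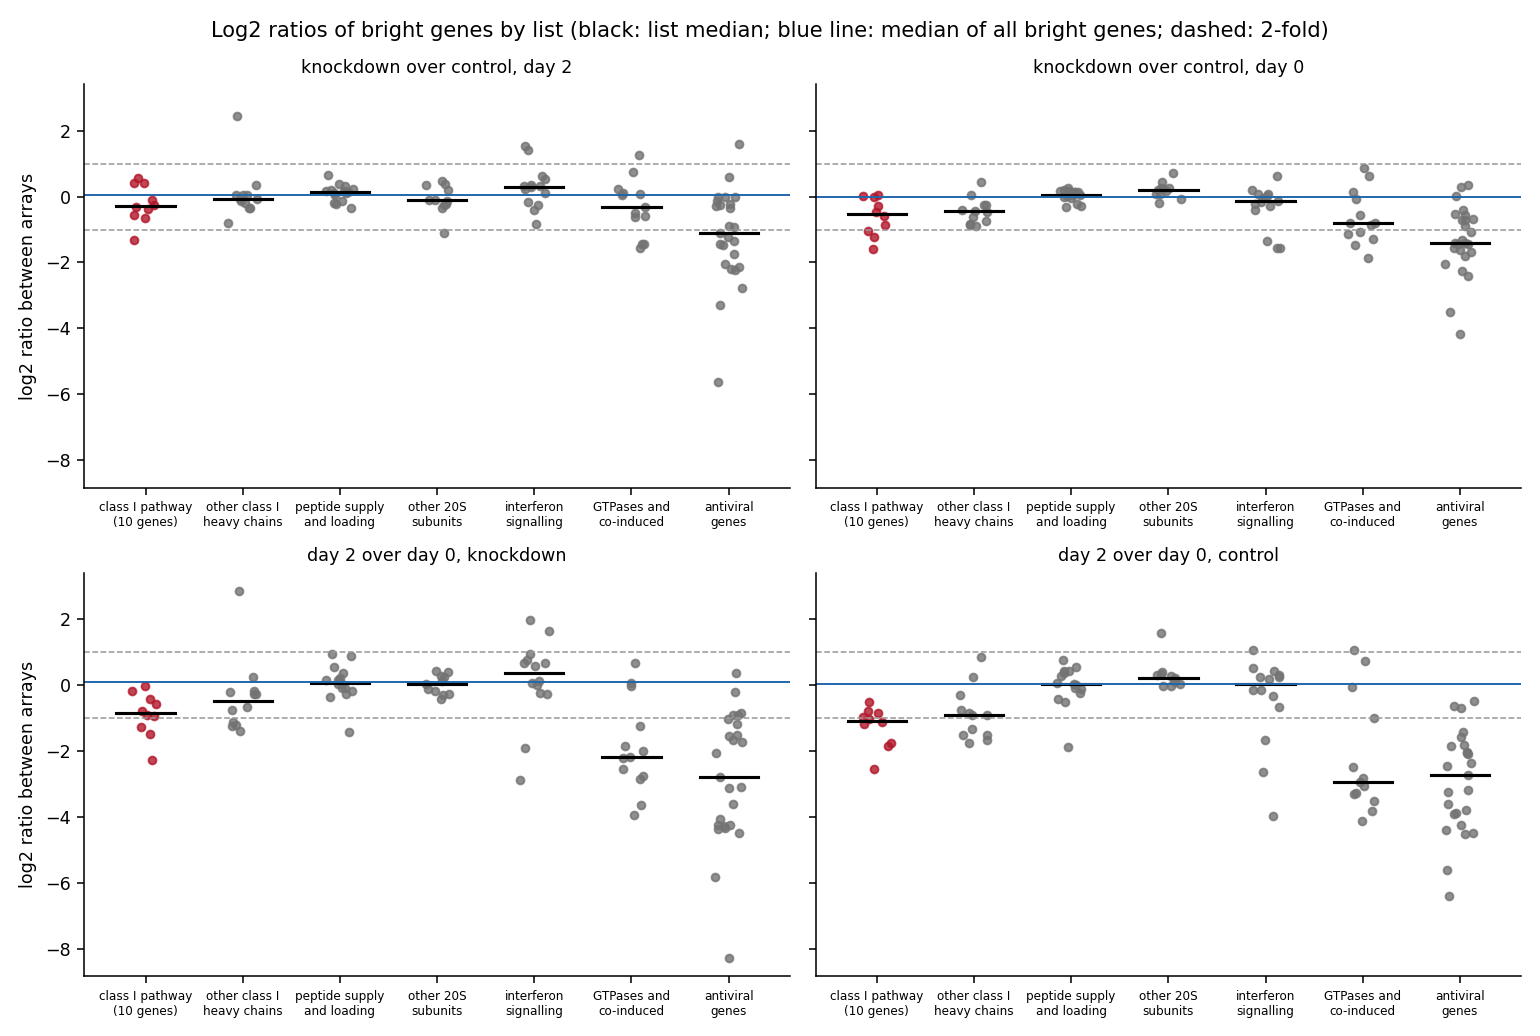
Log2 ratios (vertical axis) of bright genes by list in the 4 comparisons, the 10 class I genes in red, list medians as black bars and the median of all bright genes as a blue line. Antiviral genes have medians between -1.11 and -2.78, the class I genes between -0.29 and -1.08, and the genes of peptide supply between 0.04 and 0.13.

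Among 11379 other bright genes, the 6 whose levels over the 4 arrays came nearest to the mean profile of the 10 genes were Ncs1, Isoc1, Lactb2, Peli3, Tpm2 and Rnpepl1, at Euclidean distances of 0.054 to 0.116 between log2 levels centred per gene. The profile stood at -0.65 in knockdown and -0.43 in control cells at day 2, and at 0.24 in knockdown and 0.84 in control cells at day 0. Of the 10 genes themselves, Psmb9 lay nearest to it, at 0.185. With 4 arrays many genes can come this close, so the likeness is a description only.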

How the data were processed

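The arrays, of Agilent design 028005, were quantified with the Feature Extraction software (version 10.7.3.1, per the file headers), and the authors deposited the processed signal of each spot, an intensity corrected for background on a linear scale and not normalised between arrays. Per the file headers, a detrending step was applied on 3 arrays and not on the knockdown day 0 array, and the intensity values of the control day 0 array are given to 3 significant digits. Control spots and spots marked as outliers (156 to 260 per array) were left out and no spot was saturated. The log2 intensity minus the 75th percentile of the array was averaged over the spots of a probe, and 27656 of 55681 probes were named through their RefSeq accession (assembly GRCm38.p6, for names and promoter windows).

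A gene was compared where at least 1 of the 2 arrays was well above background, and for the difference between the days where all 4 were. Where only 1 was, the difference was taken against the dim side's own level or the detection limit of that array, whichever was higher. No test was run, since each group has 1 array; the number of arrays limits the precision. Spot errors come from a probe's own spots where it had at least 8, and otherwise from the median of the 50 probes nearest in level among 399 probes printed 10 times. Simulated data with spot scatter only were used to check that the rule was computed as written. They held no variation between cultures and no effect of slide, so they cannot show how the rule fares with these. All 10 members and Lamp2, Psmb5, Psmb6, Psmb7, Irf1, Rfx5, Psme1 and Psme2 are always named (1 further gene of that rule is not reported here), and from other lists up to 3 genes per comparison and direction with the largest called difference; further genes named (H2-Q2, H2-Q4, H2-Q7, H2-Q8, H2-Aa, H2-Ab1, H2-Eb1, the chaperones and the cell markers) were chosen after their values were seen. The members and the lists were chosen with earlier results of these data known. Alternatives (normexp with offset 50 on the median signals, the files used here holding no mean signal, no detrending, quantile, cyclic loess, percentile over detected probes, filters, median of probes, outlier spots kept, 1.5-fold) were run with Python 3.11.15, pandas 2.3.3, R 4.3.3 and limma 3.58.1.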

Additional observations from a re-analysis of the deposited data

Results flagged for a closer look

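The knockdown ratio of Tapbp turned its sign between the days, with a log2 ratio of 0.41 ± 0.027 at day 2 and of -0.29 ± 0.046 at day 0, each more than 2 spot errors from 0. The difference between the days was not tested, since each group has 1 array, and the day 0 value rests on the array on slide 1. The sign at each day was the same under all 11 settings, the main one included, with ranges of 0.35 to 0.41 at day 2 and of -0.40 to -0.23 at day 0. Several settings could not have changed it. Tapbp has 1 probe, bright and well above background on all arrays, so the filters and the median of probes leave its ratio as it is.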

How the results depend on the processing

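The number of the 10 genes called 2-fold lower in the knockdown at day 2 was 1 and became 0 with normexp background correction and 0 with the median of a gene's probes, in both cases by loss of Nlrc5. Over time in control cells it was 6. It became 5 with normexp, without detrending, with scaling by detected probes and with the median of probes, and 8 with cyclic loess normalization. Over time in knockdown cells it was 3 and became 4 with quantile and with cyclic loess normalization. The counts at 1.5-fold are set against all genes compared, dim ones included, and not against bright genes as above. At 1.5-fold, 2 of the 10 were lower in the knockdown at day 2, against 1665 of 18559 genes compared, and 5 at day 0, against 1724 of 19268. Over time 6 were lower in knockdown cells, against 3083 of 19196, and 9 in control cells, against 2708 of 18655. The knockdown ratio was higher at day 2 than at day 0 for 3, against 1382 of 15464. Of 160 counts over the settings, of the 10 genes called and of immunosubunits below their constitutive partner, 154 stayed within 1.5 times and 6 did not. Part of this was fixed beforehand, since filters cannot move genes that are all bright and well above background. No value that was called changed its sign. Signs of small ratios turned for H2-K1 (-0.14 to 0.12), Tap2 (-0.01 to 0.09) and Psmb10 (-0.10 to 0.04) in the knockdown at day 0, and for B2m, Psmb10 and Nlrc5 in the difference between the days. The day 0 ratio of Nlrc5 ran from -2.08 to -0.37 and its control time course from -3.05 to -0.81, the smaller sizes with the median of its probes. Over all genes, the counts depend on the scaling: 81.4% of genes called in the knockdown at day 0 were higher, against 45.9% with quantile and 36.5% with cyclic loess normalization and 70.9% with normexp, and in control cells over time 71.1%, against 37.2% and 30.5%. The main scaling left the median of all genes at 0.12 and 0.18 in these comparisons. Lower calls over all genes at day 0 were 806 and became 1295 with quantile and 1726 with cyclic loess normalization, and those in control cells over time were 1509 and became 2623 with cyclic loess. The slide as a block was not run because slide 1 holds only the control day 0 array. No paired analysis was possible because each group has 1 array. Leaving out an array would remove a group.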

Other observations

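Class II presentation, which serves CD4+ T cells, was mostly dim in these cells: H2-Aa, H2-Ab1 and H2-Eb1 read at most 0.0685 on any array. Cd74, the invariant chain, fell by 2.87 on the log2 scale over time in knockdown and 2.91 in control cells, and H2-DMb1, a peptide-exchange subunit, fell by 1.47 in knockdown and 2.20 in control cells. Its partner H2-DMa rose in knockdown cells (1.28) and had a ratio of 0.77 in control cells, short of 2-fold. Cd74 ended at dim levels, 0.0821 in knockdown and 0.105 in control cells at day 2.

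Among 14 bright genes of interferon signalling, 2 were called higher in the knockdown at day 2, against 3.02% of all bright genes. They were the cytokine-signalling inhibitor Socs3 (1.53) and the kinase Jak2 (1.43), and none was called lower. At day 0, 3 were called lower, against 3.1% of all bright genes. They were Stat2 and Irf9, which form a complex in the type I response (-1.57 each), and Irf7 (-1.34). The same 3 fell over time in control cells, where the control day 0 array enters again. In knockdown cells over time, Irf7 fell by 2.89 and Irf9 by 1.92, Stat2 had a ratio of -0.27, and Jak2 (1.99) and Socs3 (1.66) rose.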
